A study of Mus musculus with 18 samples.

Results

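The nuclear genes for the subunits of respiratory complex I were followed in RNA-seq libraries of mouse regulatory T cells (Tregs), the CD4+ T cells that restrain immune responses, with and without the chromatin remodeler CHD8. Members were all genes whose symbol is Nduf followed by a, b, c, s or v and a number, which leaves out the assembly factors (Ndufaf). Of 35865 gene names used, 36 matched, and all 36 were among the 15240 genes with a level high enough to be tested. No entry named Ndufb1 was used, and the acyl carrier subunit Ndufab1 and the mitochondrially encoded subunits fall outside the rule and are described apart.

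Complex I (NADH:ubiquinone oxidoreductase) takes electrons from NADH, passes them along a flavin and a chain of iron-sulfur clusters to ubiquinone, and pumps protons across the inner mitochondrial membrane. It is L-shaped, with a matrix arm that carries out the electron transfer and a membrane arm that pumps. Core subunits carry the cofactors or form the proton channels, and accessory subunits surround and stabilize them. Most subunits are encoded in the nucleus, and the remaining core subunits of the membrane arm are encoded by mitochondrial DNA. Tregs are known to depend more on mitochondrial oxidation than conventional effector T cells do.

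Splenic CD4+ T cells were sorted for YFP, and 1 library was made from each of 4 mice, 2 WT and 2 Chd8-/-. Cre was expressed as a fusion with YFP from the Foxp3 locus on the X chromosome, so that floxed Chd8 was deleted in Foxp3-expressing cells. The genotype label is CHD8Flox/FloxFoxp3YFP-Cre for the Chd8-/- libraries and CHD8flox/floxFoxp3YFP-Cre/+ for the WT libraries. The latter also names floxed alleles, whereas the sample titles and the study call these mice WT, and the titles were used for grouping. Its Foxp3YFP-Cre/+ part is a genotype of heterozygous females, although the study gives a male and a female WT mouse. In the study, YFP+ Tregs of floxed females with this heterozygous Cre lacked CHD8. The alleles of the WT mice therefore cannot be settled from the labels. All 4 libraries also carry a label of Poly IC injection. The study used littermates of 5 to 7 weeks matched for sex, with a male and a female in each genotype, and the labels do not tell which library came from which sex. Sex and replicate therefore cannot be told apart from the labels, and transcripts that differ by sex were not examined here.

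Values are TPM, which scales reads by gene length and library total, so that levels can be compared between genes. The number of reads behind a value is unknown, and no counting interval is given. Chd8 itself was listed at 14.9 and 11.4 TPM in the Chd8-/- libraries and at 24.7 and 27.6 TPM in the WT libraries. The Chd8-/- libraries lay below both WT libraries for Chd8, with a log2 fold change of −0.95 ± 0.29 (SE) and an adjusted p of 0.455 (limma). The transcript was thus still listed in both Chd8-/- libraries, and which exons were deleted was not analysed here. The Treg markers Foxp3 (203 to 232 TPM) and Il2ra (861 to 1156 TPM) were high in all 4 libraries. Of 7 Treg markers, 2 were higher in Chd8-/- without overlap between the genotypes (14.8% of all genes), and 2 were lower (27.8% of all genes). Ctla4 was higher (535 and 350 TPM, against 278 and 333 TPM in WT), as was Tnfrsf18 (382 and 289 TPM, against 169.5 and 236.5 TPM). Cd4 was lower (326 and 324 TPM, against 403 and 432 TPM), as was Cd3e (1309.5 and 1267 TPM, against 1548 and 1528 TPM). The lowest adjusted p of the 7 was 0.481 (limma). In the summed erythroid and myeloid markers both Chd8-/- libraries stood apart from the WT libraries, replicate 1 below them and replicate 2 above them. The summed TPM of 6 erythroid markers was 1990 in Chd8-/- replicate 2, 8.70 in Chd8-/- replicate 1 and 352 to 385 in the WT libraries. The sum of 7 myeloid markers was 1484 there, against 33.2 in Chd8-/- replicate 1 and 121 to 144 in the WT libraries, and 1360 of it was Lyz2. The sum of 5 B cell markers was 140 in Chd8-/- replicate 2 and 29.7 to 43.8 in the other libraries, and that of 6 CD8 T cell and NK cell markers was 55.8 against 14.0 to 44.4. In bulk RNA, fewer cells of a type and less RNA per cell cannot be told apart.

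All 36 subunit genes were well expressed. Their mean over the 4 libraries ranged from 21.5 TPM to 508 TPM with a median of 112 TPM, against a median of 13.4 TPM for all genes tested. The median exon length was 922 nt for the subunit genes and 3034 nt for the genes tested that have a position in the annotation. The part of length scaling in this gap of levels was not tested. Ndufa4, a subunit now placed with complex IV although its name keeps it in the family, had the highest level, and Ndufs1, the largest core subunit and a carrier of iron-sulfur clusters, had the lowest. The subunit genes together made up 0.625% of all TPM in Chd8-/- replicate 1, 0.472% in Chd8-/- replicate 2, and 0.468% and 0.471% in the WT libraries. In this sum, Chd8-/- replicate 1 was therefore alone above a level that the other 3 libraries shared. The single genes, drawn in the plot of levels by library, did not all follow the sum. Of the 36 genes, 11 had Chd8-/- replicate 2 as well as replicate 1 above the WT range (14.8% of all genes). In 13, Chd8-/- replicate 2 was higher than Chd8-/- replicate 1, a share near that of all genes (37.2%). Chd8-/- replicate 2 was above the WT mean in 19 of the 36 (37.0% of all genes), so that its sum near the WT level combined genes on either side of it.

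**Figure D1:**
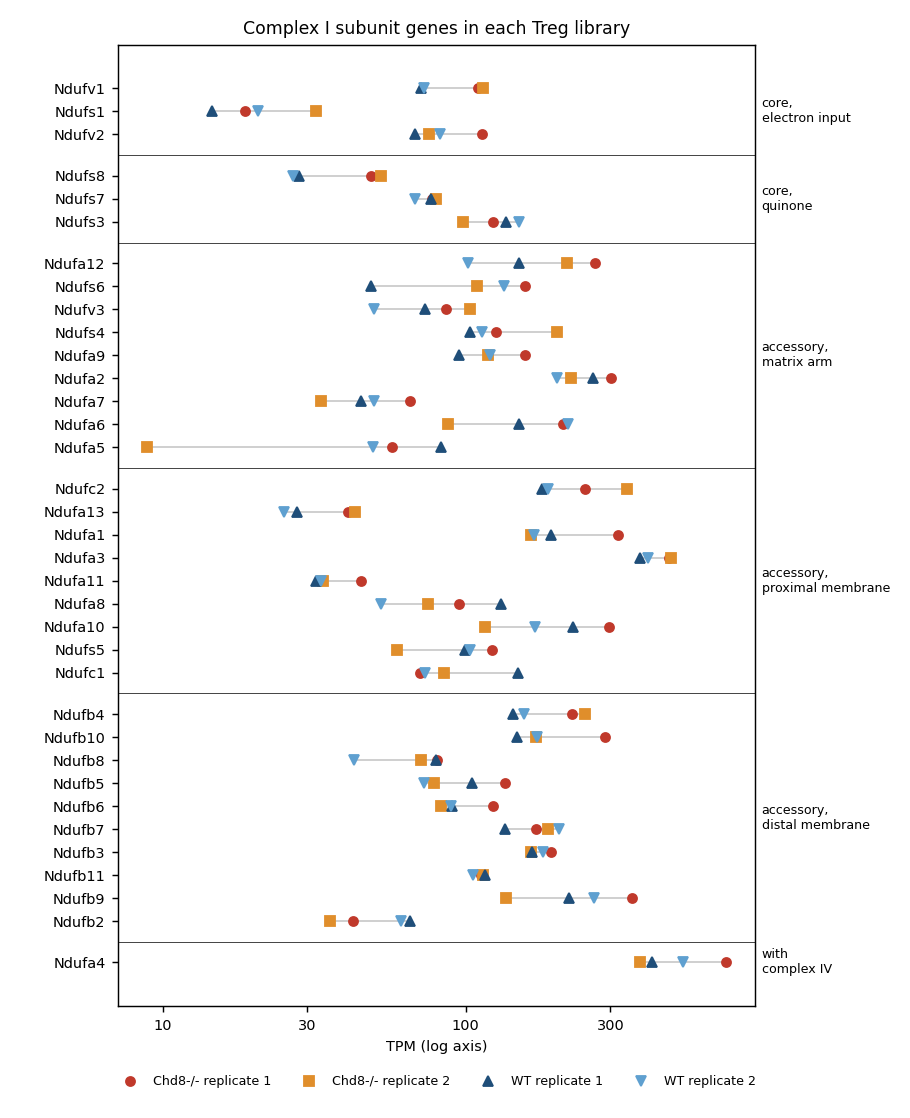
TPM (log axis) of 35 complex I subunit genes in 2 Chd8-/- and 2 WT Treg libraries, grouped by part of the complex and sorted within it by fold change, with a grey line from the lowest to the highest library. The groups are separated upward in 11 genes, such as Ndufs8 and Ndufv1 (14.8% of all genes), and downward in 2, Ndufb2 and Ndufs3 (27.8% of all genes).

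Fitted by limma on log2(TPM + 1) over all genes tested, 26 of the 36 subunit genes had a log2 fold change above 0 (Chd8-/- minus WT), where 38.5% of all genes did. The median log2 fold change was 0.21 for the subunit genes and −0.15 for all genes tested, a gap of 0.36. The groups were separated upward (each Chd8-/- library above each WT library) in 11 subunit genes, against 14.8% of all genes, and downward in 2, against 27.8% of all genes. All genes tested include many at lower levels. Among the 5655 with a mean TPM in the range of the subunit genes, a description chosen after the data were seen and without a test, the median was −0.07, 43.9% had a fold change above 0, and the groups were separated upward in 18.6% and downward in 25.2%. Among the 5989 with exons in the length range of the subunit genes the median was −0.09. No subunit gene passed an adjusted p of 0.05 (limma, two-sided, Benjamini-Hochberg), and 0.0% of all genes did. The lowest adjusted p among them was 0.431. At an unadjusted p under 0.05, limma listed 6 subunit genes as higher, against 3.9% of all genes, and 1 as lower, against 6.3% of all genes. With 2 libraries a genotype, no exact permutation test can reach a p below 0.333. The 95% intervals of 29 subunit genes included 0, with SEs from 0.15 to 0.93. No subunit gene reached a log2 fold change of 1, and Ndufa5 alone went past −1.

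These counts depended on single libraries. With Chd8-/- replicate 2 left out, the remaining Chd8-/- library lay above both WT libraries in 26 subunit genes (32.5% of all genes) and below them in 3 (38.7%), and the median log2 fold change was 0.45. With Chd8-/- replicate 1 left out, the counts were 12 above (28.0%) and 13 below (52.7%), and the median was 0.027, beside −0.25 for all genes. Leaving out WT replicate 1 gave 16 above (22.0%) and 4 below (43.2%), and leaving out WT replicate 2 gave 17 above (26.5%) and 7 below (38.0%). A comparison of 1 library with 2 separates more genes by construction. At an unadjusted p under 0.05 in either direction, limma listed 7 subunit genes with all libraries (10.2% of all genes). The number was 10 without Chd8-/- replicate 1 (20.9%), 5 without Chd8-/- replicate 2 (9.88%), 1 without WT replicate 1 (3.67%) and 1 without WT replicate 2 (3.85%). With libraries scaled by the median of ratios, 17 subunit genes lay above (21.4% of all genes) and 2 below (22.4%). That scaling moved the all-gene median from −0.15 to −0.02, and the share of higher among all genes with separated groups from 34.8% to 48.9%. Quantile normalization moved this share of separated genes to 49.6% and gave 12 subunit genes above (21.0% of all genes) and 2 below (21.3%).

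**Figure D2:**
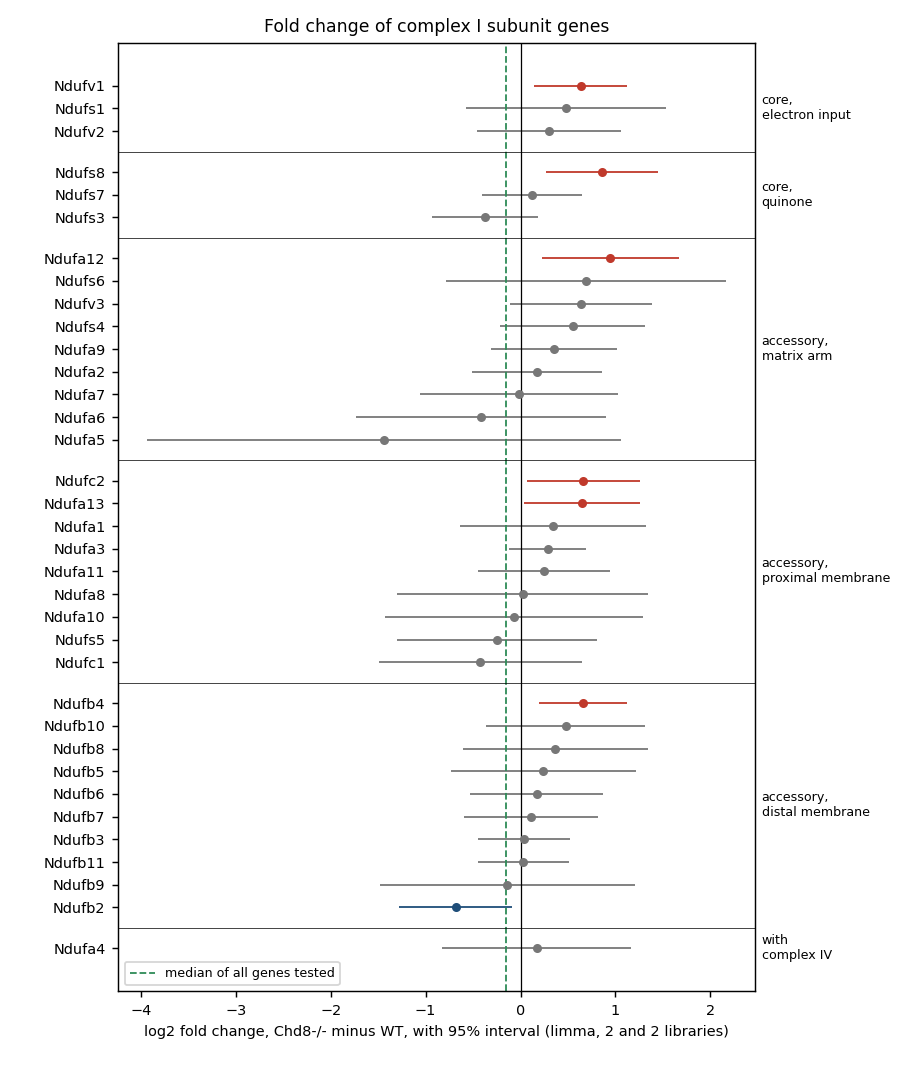
Log2 fold change (Chd8-/- minus WT) of 35 complex I subunit genes with 95% intervals from limma (2 and 2 libraries), by part of the complex. Red intervals lie above 0 (6 genes), the blue one lies below 0 (Ndufb2), grey ones include 0 (28 genes), and the dashed green line is the median of all genes tested (−0.15).

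The 3 core subunits at the tip of the matrix arm, where NADH delivers its electrons, all had fold changes above 0, with a summed level at 147% and 135% of the WT mean in the Chd8-/- libraries. Ndufv1, the subunit that binds NADH and the flavin (chr19:4007499-4012755, minus strand, GRCm38.p6), reached 110 and 114 TPM in the Chd8-/- libraries, against 71.2 and 72.7 TPM in WT. The groups did not overlap, and replicates differed by less than the groups did. Its log2 fold change was 0.63 ± 0.18 (SE), with an adjusted p of 0.446 (limma). Ndufv2, which holds an iron-sulfur cluster beside the flavin (chr17:66078795-66101559, minus strand), reached 113 and 75.4 TPM in the Chd8-/- libraries, against 68.0 and 82.1 TPM in WT. Only Chd8-/- replicate 1 stood above the other libraries, and the log2 fold change was 0.30 ± 0.28 with an adjusted p of 0.745 (limma). Ndufs1 (chr1:63143592-63176822, minus strand) reached 18.7 and 32.0 TPM in the Chd8-/- libraries, against 14.5 and 20.6 TPM in WT. The groups overlapped, Chd8-/- replicate 2 was the highest, and the log2 fold change was 0.48 ± 0.39 with an adjusted p of 0.709 (limma).

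The core subunits that lead electrons on to ubiquinone diverged, with separation upward for Ndufs8 and Ndufs7 and downward for Ndufs3. Ndufs8, which carries tetranuclear iron-sulfur clusters (chr19:3908863-3912774, minus strand), reached 48.7 and 52.6 TPM in the Chd8-/- libraries, against 28.1 and 27.0 TPM in WT. On the fitted scale the Chd8-/- libraries were 1.81 times the WT libraries, with no overlap and a narrow spread in each group. The log2 fold change was 0.85 ± 0.22 and the adjusted p was 0.431 (limma), the lowest of all subunit genes. Ndufs7, whose cluster is the last before ubiquinone (chr10:80249105-80256794, plus strand), reached 77.2 and 79.9 TPM in the Chd8-/- libraries, against 76.6 and 67.8 TPM in WT. The groups did not overlap, though the nearest libraries were close, and the log2 fold change of 0.12 ± 0.20 had an adjusted p of 0.851 (limma).

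Ndufs3, a core subunit without a cofactor of its own (chr2:90894627-90904721, minus strand), reached 123 and 97.8 TPM in the Chd8-/- libraries, against 136 and 150 TPM in WT. Both Chd8-/- libraries lay below both WT libraries, with a log2 fold change of −0.37 ± 0.21 and an adjusted p of 0.603 (limma).

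Among the 9 accessory subunits of the matrix arm, 6 had a fold change above 0 (38.5% of all genes). The groups were separated upward in 3 (14.8% of all genes), Ndufa12, Ndufv3 and Ndufs4. Ndufa12, which takes the place of the assembly factor Ndufaf2 late in assembly (chr10:94199035-94221440, plus strand), reached 267 and 216 TPM in the Chd8-/- libraries, against 150 and 102 TPM in WT. Both Chd8-/- values exceeded both WT values. With 0.95 ± 0.27 it had the largest positive log2 fold change of the 36, at an adjusted p of 0.443 (limma). Ndufs6, a zinc-binding subunit needed to complete the matrix arm (chr13:73319876-73328482, minus strand), reached 157 and 109 TPM in the Chd8-/- libraries, against 48.6 and 134 TPM in WT. A single low value, WT replicate 1, set its log2 fold change of 0.69 ± 0.55 (adjusted p of 0.703, limma), which was −0.031 without that library.

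The widest spread of all subunit genes was also in the matrix arm. Ndufa5, an accessory subunit beside the core of this arm (chr6:24518662-24527690, minus strand), was listed at 57.1 TPM in Chd8-/- replicate 1, 8.90 TPM in Chd8-/- replicate 2, and 82.7 and 49.4 TPM in the WT libraries. Chd8-/- replicate 1 lay within the WT range and Chd8-/- replicate 2 far below it. The log2 fold change was −1.44 ± 0.93 (adjusted p of 0.645, limma), and it was −0.16 without Chd8-/- replicate 2. Ndufa6, a subunit of the LYR family that binds the acyl carrier protein (chr15:82350139-82354291, minus strand), reached 209 and 87.6 TPM in the Chd8-/- libraries, against 150 and 218 TPM in WT. Again Chd8-/- replicate 2 alone lay below the WT range. The log2 fold change was −0.41 ± 0.49 with an adjusted p of 0.797 (limma), and 0.21 without that library. The remaining accessory subunits of the matrix arm (Ndufv3, Ndufs4, Ndufa9, Ndufa2 and Ndufa7) had log2 fold changes from −0.02 (Ndufa7) to 0.63 (Ndufv3).

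Of the 9 accessory subunits in the part of the membrane arm next to the matrix arm, 6 had a fold change above 0 (38.5% of all genes). The groups were separated upward in 4 (14.8% of all genes), Ndufc2, Ndufa13, Ndufa3 and Ndufa11. Ndufc2, a small membrane subunit (chr7:97400003-97407800, plus strand), reached 247 and 340 TPM in the Chd8-/- libraries, against 178 and 187 TPM in WT. The Chd8-/- libraries differed from each other by more than the WT libraries did and still lay above them, with a log2 fold change of 0.66 ± 0.22 and an adjusted p of 0.470 (limma). Ndufa13, also known as GRIM-19 and studied as a regulator of cell death (chr8:69894163-69902558, minus strand), reached 40.9 and 43.0 TPM in the Chd8-/- libraries, against 27.8 and 25.1 TPM in WT. The values were tight within each genotype and apart between them, with a log2 fold change of 0.65 ± 0.23 and an adjusted p of 0.479 (limma). Ndufc1, another small membrane subunit (chr3:51405479-51408955, minus strand), reached 70.9 and 85.1 TPM in the Chd8-/- libraries, against 149 and 73.2 TPM in WT. Only WT replicate 1 stood out, and the log2 fold change of −0.42 ± 0.40 (adjusted p of 0.745, limma) was 0.085 without it. Ndufa3, Ndufa11, Ndufa1, Ndufa8, Ndufa10 and Ndufs5 had log2 fold changes between −0.25 (Ndufs5) and 0.35 (Ndufa1).

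Among the 10 accessory subunits at the far end of the membrane arm, 8 had a fold change above 0 (38.5% of all genes). The groups were separated in only 2, with 1 upward (14.8% of all genes) and 1 downward (27.8% of all genes). Ndufb4 (chr16:37647602-37654368, minus strand) reached 225 and 248 TPM in the Chd8-/- libraries, against 143 and 155 TPM in WT. Its replicates were close and the groups did not overlap, with a log2 fold change of 0.66 ± 0.17 and an adjusted p of 0.432 (limma). Ndufb2 (chr6:39592565-39599843, plus strand) reached 42.4 and 35.8 TPM in the Chd8-/- libraries, against 65.3 and 61.3 TPM in WT. It was the only subunit gene whose 95% interval lay below 0, with a log2 fold change of −0.69 ± 0.22 and an adjusted p of 0.462 (limma). The other 8 ranged from −0.14 (Ndufb9) to 0.47 (Ndufb10). Ndufb11, one of 2 subunit genes on the X chromosome, had the narrowest range, with 112 and 114 TPM in the Chd8-/- libraries and 116 and 106 TPM in WT. Ndufa4 reached 724 and 376 TPM in the Chd8-/- libraries, against 412 and 521 TPM in WT, so that the Chd8-/- libraries enclosed the WT libraries (log2 fold change 0.17).

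The Chd8-/- libraries differed from each other more than the WT libraries did. Their distance on the log2 scale was larger than that of the WT libraries in 25 of the 36 subunit genes (64.1% of all genes). The median distance was 0.42 against 0.20 in the subunit genes and 0.52 against 0.32 over all genes. In 21 subunit genes the distance of the Chd8-/- libraries exceeded the size of the fold change, a share not counted over all genes. Against the WT mean, the median subunit gene stood at 0.45 in Chd8-/- replicate 1 and at 0.03 in Chd8-/- replicate 2 on the log2 scale, where the median of all genes stood at −0.04 and −0.25. In Chd8-/- replicate 1, 32 subunit genes lay above the WT mean (46.9% of all genes). In Chd8-/- replicate 2, 19 did (37.0% of all genes). The genes at least 1 log2 unit apart, named after their values were seen, were Ndufa5, Ndufb9, Ndufa10, Ndufa6 and Ndufs5, all with the lower value in Chd8-/- replicate 2. Ndufa5 was 6.42 times and the other 4 were 2.06 to 2.59 times as high in replicate 1. The WT libraries were at least 1 log2 unit apart in 3 subunit genes, Ndufs6, Ndufa8 and Ndufc1. The share of all genes this far apart was not counted. Ndufb9 reached 353 and 136 TPM in the Chd8-/- libraries, against 219 and 266 TPM in WT. Ndufa10 reached 297 and 116 TPM in the Chd8-/- libraries, against 226 and 169 TPM in WT. In both, the Chd8-/- libraries lay on either side of the WT libraries. In 13 subunit genes replicate 2 was the higher one (37.2% of all genes), Ndufs1 and Ndufs4 the most, with replicate 1 at 0.58 and 0.63 of its level. Chd8-/- replicate 2 was also the library with the highest summed erythroid and myeloid markers, and Chd8-/- replicate 1 the one with the lowest. Hba-a1 was listed at 553 TPM there and at 0.5 TPM in Chd8-/- replicate 1, and Lyz2 at 1360 and 20.0 TPM. In the WT libraries Hba-a1 was listed at 68.1 and 67.3 TPM and Lyz2 at 77.1 and 60.5 TPM. Of the erythroid markers 5 of 6 (all but Alas2) and of the myeloid markers 6 of 7 (all but Adgre1) were highest in Chd8-/- replicate 2, and Hba-a2, Hbb-bs and Hbb-bt were listed at 0 in Chd8-/- replicate 1. Of the markers of CD8 T cells and NK cells, Cd8a was at 1.4 to 1.8 TPM in all 4 libraries, but Cd8b1 was at 7.7 and 35.9 TPM in the Chd8-/- libraries, against 36.0 and 21.7 TPM in WT. Gzma, a protease of cytotoxic granules, was listed at 0 and 13.6 TPM in the Chd8-/- libraries, against 4.4 and 1.3 TPM in WT. The part of other cells in the subunit values was not tested.

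**Figure D3:**
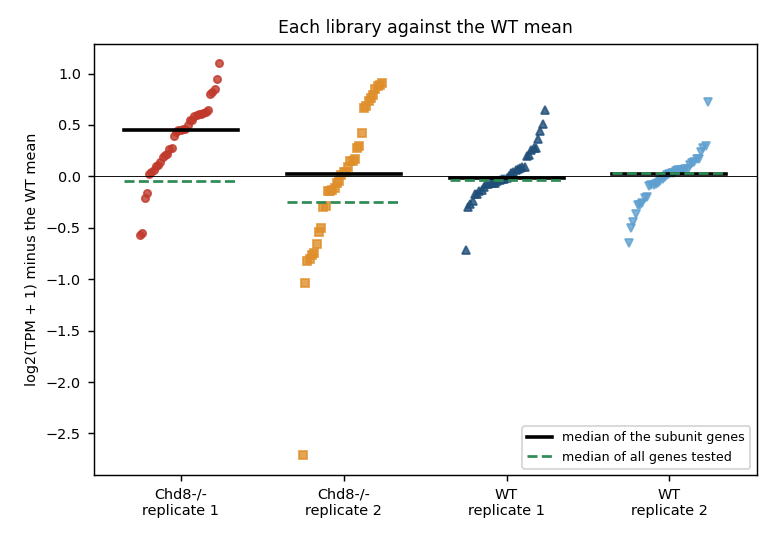
Each of the 36 complex I subunit genes as log2(TPM + 1) minus the mean of the WT libraries, per library, sorted within the library, with the median of the subunit genes (black) and of all genes tested (dashed green). The median lies at 0.45 in Chd8-/- replicate 1 and at 0.03 in Chd8-/- replicate 2, and the lowest point is Ndufa5 in Chd8-/- replicate 2.

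For the subunits encoded by mitochondrial DNA, Chd8-/- replicate 1 had the lowest rather than the highest summed level. ND1 to ND6 and ND4L, the core of the membrane arm, all had fold changes slightly below 0 (log2 from −0.27 to −0.08), and none separated the groups. In Chd8-/- replicate 1 all 7 lay below the WT mean, and in Chd8-/- replicate 2 all 7 lay above it. ND1, where the membrane arm meets the ubiquinone site, reached 7604 and 12737 TPM in the Chd8-/- libraries, against 10647 and 10127 TPM in WT. Together the 7 made up 3.21% of all TPM in Chd8-/- replicate 1, 5.07% in Chd8-/- replicate 2, and 4.70% and 4.45% in the WT libraries. The ratio of mitochondrial to nuclear subunit TPM was 5.13 in Chd8-/- replicate 1, 10.7 in Chd8-/- replicate 2, and 10.0 and 9.45 in the WT libraries. Chd8-/- replicate 1 thus had the most nuclear and the least mitochondrial subunit RNA as a share of all TPM, and the other 3 libraries were close to each other. Mitochondrial genes are transcribed together from both strands, so that these 7 values are not independent of each other. Ndufab1, the mitochondrial acyl carrier protein, bound to Ndufa6 in the matrix arm and to Ndufb9 in the membrane arm, reached 123 and 123 TPM in the Chd8-/- libraries, against 94.9 and 59.8 TPM in WT, without overlap (log2 fold change 0.70 ± 0.29, adjusted p of 0.516, limma).

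**Figure D4:**
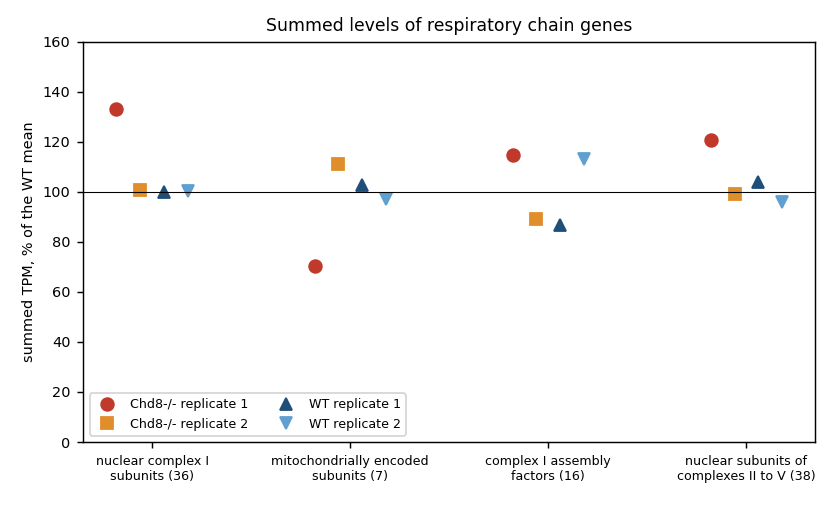
Summed TPM of 4 groups of respiratory chain genes in each library, as a percentage of the mean of the 2 WT libraries, which is drawn as a line at 100. Chd8-/- replicate 1 stands at 133% for the nuclear and at 70.2% for the mitochondrial subunits of complex I, and Chd8-/- replicate 2 at 100.5% and 111%.

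Among 16 assembly factors of complex I, which help to build the enzyme and are no part of it, 9 had a fold change above 0 (38.5% of all genes) and none passed an adjusted p of 0.05 (limma). The groups were separated upward in 3 (Ndufaf1, Ndufaf3 and Ecsit), against 14.8% of all genes, and downward in 3 (Ndufaf6, Tmem126a and Tmem186), against 27.8%. Ndufaf1, which acts with Ecsit in building the membrane arm, reached 26.9 and 23.9 TPM in the Chd8-/- libraries, against 9.9 and 13.5 TPM in WT. The Chd8-/- values were close to each other and above both WT values, with a log2 fold change of 1.07 ± 0.30 and an adjusted p of 0.444 (limma). Ndufaf3, a partner of Ndufaf4 in assembling the quinone end of the matrix arm, reached 62.6 and 63.9 TPM in the Chd8-/- libraries, against 12.7 and 37.2 TPM in WT. The WT libraries were far apart, and the log2 fold change of 1.49 ± 0.55 had an adjusted p of 0.487 (limma). Tmem126a, a membrane protein, reached 142 and 67.5 TPM in the Chd8-/- libraries, against 154 and 165 TPM in WT. Chd8-/- replicate 2 was the low one, and the log2 fold change was −0.70 ± 0.40 with an adjusted p of 0.611 (limma). Nubpl, which delivers iron-sulfur clusters, was listed at 1.3 TPM in Chd8-/- replicate 1 and at 36.9 TPM in Chd8-/- replicate 2, on either side of 7.3 and 7.1 TPM in the WT libraries.

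The nuclear subunits of complexes II to V were listed in a like pattern. Of 38 genes, 26 had a fold change above 0 (38.5% of all genes), 10 were separated upward (14.8%) and 3 downward (27.8%). Their median log2 fold change was 0.18, and none passed an adjusted p of 0.05 (limma). Their summed level was 121% of the WT mean in Chd8-/- replicate 1 and 99.2% in Chd8-/- replicate 2. The excess of nuclear respiratory chain transcripts in Chd8-/- replicate 1 was thus listed for the other complexes too. At an unadjusted p under 0.05, limma listed 1 of the 38 as higher, against 3.9% of all genes, and 1 as lower, against 6.3%. Sdhb, the iron-sulfur subunit of complex II, reached 122 and 202 TPM in the Chd8-/- libraries, against 69.8 and 67.0 TPM in WT (log2 fold change 1.18 ± 0.30, adjusted p of 0.430, limma). Atp5d, the delta subunit of ATP synthase, reached 63.5 and 70.3 TPM in the Chd8-/- libraries, against 91.6 and 116 TPM in WT (log2 fold change −0.62 ± 0.22, adjusted p of 0.481, limma). By complex, the median log2 fold change was 0.22 for the 4 genes of complex II, 0.08 for 9 of complex III, 0.14 for 10 of complex IV and 0.23 for 15 of complex V.

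Regulators of mitochondrial biogenesis, most of which act on nuclear genes while Tfam, Tfb1m and Tfb2m act on mitochondrial DNA, had no common direction. Of 12 listed regulators, 11 were tested, 5 had a fold change above 0 (38.5% of all genes) and none passed an adjusted p of 0.05 (limma). Ppargc1a, the coactivator PGC-1alpha, was listed at 0 TPM in all 4 libraries. Yy1, Gabpa, Esrra and Tfam were separated upward (14.8% of all genes), and Nrf1 and Ppargc1b downward (27.8% of all genes). Yy1, a zinc finger factor, reached 109 and 87.7 TPM in the Chd8-/- libraries, against 64.4 and 70.2 TPM in WT (log2 fold change 0.53 ± 0.22, adjusted p of 0.510, limma). Nrf1, nuclear respiratory factor 1, reached 10.8 and 6.3 TPM in the Chd8-/- libraries, against 12.4 and 12.2 TPM in WT (log2 fold change −0.52 ± 0.39, adjusted p of 0.686, limma).

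In the genome the subunit genes are scattered over 15 chromosomes, and many start beside another gene. A gene on the opposite strand starts within 1 kb, head to head, for 14 of 36 (38.9%), against 14.9% of 13946 tested genes with a position in the annotation. Ndufs6 starts 21 bp from Mrpl36, Ndufa7 10 bp from Rps28 and Ndufs1 9 bp from Eef1b2, genes of the mitochondrial ribosome, the cytosolic ribosome and translation elongation. Ndufa1, Ndufa13, Ndufa2 and Ndufb11 overlap a protein-coding gene on the opposite strand, and whether reads were counted by strand is not given in the sources used here, so reads of the partners may be mixed. Among those, Ndufa13 is one of the 6 with an interval above 0. Annotated copies exist for Ndufa12, Ndufs6, Ndufb4, Ndufa11 and Ndufs5 (pseudogenes for most, and Ndufb4b and Ndufb4c for Ndufb4), and how reads shared with a copy were counted is not known, so the levels of these genes are uncertain.

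The promoters of 32 of the 36 genes were found in the RefSeq promoter table (GRCm38.p6, 34 windows from 250 bases before to 50 after a start), and Ndufs1, Ndufb9 and Ndufa2 are among those without an entry. They were searched on both strands for letters bound by factors of nuclear respiratory genes. The YY1 letters ATGGCGGC were in 20.6% of the subunit windows (6 genes), in 4.49% of the 12928 windows of genes tested and in 2.24% of all 32851 windows. The NRF1 letters GCATGCGC were in 8.82% of the subunit windows (Ndufa6, Ndufa8 and Ndufa11), against 4.90% and 2.71%. The ETS or GABP letters CCGGAAGT were in 2.94% (Ndufs3), against 7.75% and 3.89%. The CCAAT box and the GC box GGGCGG, searched after the data were seen, were in 29.4% and 44.1% of the subunit windows, against 37.9% and 56.5% of the windows of genes tested. The median GC content was 59.0% in the subunit windows and 59.3% in those of genes tested. In 5 of the 6 genes with the YY1 letters, the letters begin at the annotated start codon, 20 to 39 bases from the start of the transcript, and those 5 are shown with the letters in capitals because the same stretch holds a factor's motif and the first codons. No other searched letters overlap them, and the letters of the sixth gene, Ndufa7, lie before its start.
Ndufs4 (chr13:114388045-114388066, minus strand): ctacaggaagATGGCGGCggtc
Ndufs6 (chr13:73328433-73328456, minus strand): caccggcaagATGGCGGCggtgct
Ndufs7 (chr10:80249466-80249493, plus strand): cgaggccaagATGGCGGCgctggcgggt
Ndufa9 (chr6:126849095-126849122, minus strand): gtgggagaagATGGCGGCcgccgtccgc
Ndufb5 (chr3:32737072-32737099, plus strand): cggtgtagccATGGCGGCcatgagcctg

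The genes with these letters had log2 fold changes of 0.55 (Ndufs4), 0.69 (Ndufs6), 0.12 (Ndufs7), 0.35 (Ndufa9), 0.24 (Ndufb5) and −0.02 (Ndufa7). For the NRF1 letters, the 3 genes are shown with 10 bases on each side, in capitals where they match. Their log2 fold changes were 0.25 (Ndufa11, the only one of the 3 with separated groups), 0.02 (Ndufa8) and −0.41 (Ndufa6). In Ndufa11 the letters also occur on the other strand, overlapping the match shown.
Ndufa11 (chr17:56717694-56717721, plus strand): tgcactgcgcGCATGCGCgcacgccttg
Ndufa8 (chr2:36049329-36049356, minus strand): cgctggagacGCATGCGCagatggtacc
Ndufa6 (chr15:82354357-82354384, minus strand): ccgcggtagaGCATGCGCattgcagagc

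For the upward genes with the 3 lowest p-values (Ndufs8, Ndufb4 and Ndufa12) and for Ndufb2, which separated downward, the 120 bases before the start are given, with CCAAT boxes, GC boxes and the other searched letters in capitals on either strand. No annotated exon lies in these windows. Ndufs8 has 3 CCAAT boxes, Ndufa12 has 2 GC boxes, Ndufb4 has 1 GC box and Ndufb2 has 1 CCAAT box, so that genes with separated groups in both directions hold a CCAAT box and no searched letters are common to the 3 upward ones within these 120 bases.
Ndufs8 (chr19:3912775-3912894, minus strand): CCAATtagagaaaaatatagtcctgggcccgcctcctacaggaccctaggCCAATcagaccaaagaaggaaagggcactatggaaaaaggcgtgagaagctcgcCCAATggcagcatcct
Ndufa12 (chr10:94198915-94199034, plus strand): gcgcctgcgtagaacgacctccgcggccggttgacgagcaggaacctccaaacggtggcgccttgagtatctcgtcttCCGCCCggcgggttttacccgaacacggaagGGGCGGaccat
Ndufb4 (chr16:37654369-37654488, minus strand): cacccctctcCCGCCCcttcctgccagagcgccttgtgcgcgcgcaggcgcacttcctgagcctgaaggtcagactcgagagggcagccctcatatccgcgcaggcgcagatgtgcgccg
Ndufb2 (chr6:39592445-39592564, plus strand): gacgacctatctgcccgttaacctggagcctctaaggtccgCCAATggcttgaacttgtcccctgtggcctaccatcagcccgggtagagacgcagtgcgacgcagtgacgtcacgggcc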

How the data were processed

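RNA-seq of sorted YFP+ splenic Tregs from 2 WT and 2 Chd8-/- mice was used, grouped by the sample titles. The authors trimmed reads (Trim Galore 0.4.2, cutadapt 1.9.1), aligned them to mm10 (STAR 2.6.1e), removed duplicates, counted reads on RefSeq genes (featureCounts 1.6.2), and deposited TPM rounded to 0.1, with the depth unknown. The labels name both a 10X assay and an Illumina RNA-seq kit.

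The RNA table lists 35869 names, of which 4 repeat and were not used. Tested genes had at least 1 TPM in 2 libraries. They were compared as log2(TPM + 1), which understates changes of low genes, with limma 3.58.1 (R 4.3.3). Its lmFit and trended eBayes gave two-sided p-values, adjusted by Benjamini-Hochberg over the tested genes and called at 0.05. With 1 library per mouse, p-values rest on the spread between libraries of a genotype, moderated by a trend over all genes. That spread holds differences between mice, sex among them, and counting error together. The script was tested on simulated data. Tables were handled with Python 3.11.15, pandas 2.3.3 and numpy 2.4.6, and figures drawn with matplotlib 3.10.9. Positions, overlaps and promoters are from RefSeq on GRCm38.p6, the build of the RNA alignment.

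Values in every library were given for the 5 subunit genes with the highest and the 5 with the lowest fold change, the nuclear core subunits and every subunit gene at an unadjusted p under 0.05, and for others by range and count, with a few exceptions chosen after their values were seen (Ndufb11, Ndufa4, Ndufb9 and Ndufa10). Counts cover all 36 subunit genes, of which 1 is not reported here by name. Members and gene lists were chosen with earlier results of these data known. Alternatives were a pseudocount of 0.1 or 5 TPM, all genes unfiltered, genes averaging 5 TPM or more, quantile and median-of-ratios scaling, a replicate block, eBayes without trend, and each library left out. ATAC-seq and CHIP-seq peaks at the promoters are not analysed here although planned, as their positions are on mm39 and an annotation of that build was not used here.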

Additional observations from a re-analysis of the deposited data

How the results depend on the processing

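The number of subunit genes past an adjusted p of 0.05 (limma) was 0 under all 12 alternatives, with 1 to 10 at an unadjusted p under 0.05 (7 in the reported analysis, 2 in eBayes without trend), while the count over all genes ranged from 560 to 3181 (1555 in the reported analysis). The lowest adjusted p among them was 0.204 to 0.971 over the alternatives. A mean TPM of at least 5 called 2 of all genes, none of them a subunit gene. The median log2 fold change of the subunit genes was 0.19 to 0.35 under the alternatives that kept all libraries, and 0.027 to 0.45 with 1 library left out, lowest without Chd8-/- replicate 1 and highest without Chd8-/- replicate 2. The count with both Chd8-/- libraries above both WT libraries was 11, was 17 with median-of-ratios scaling, and was 12 to 26 with 1 library left out. The count below was 2 under the alternatives that kept all libraries and 3 to 13 with 1 library left out.

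Of 180 values of 15 named subunit genes under the alternatives, 177 kept their direction and 3 reversed. All of the reversed values came with 1 library left out. The changed filters, the replicate block and eBayes without trend cannot alter a fold change here, so their values kept their direction by construction. Since no gene passed the threshold, these counts speak of direction only. Of the 60 values with 1 library left out, 19 kept the direction but differed from the reported value by over 1.5 times, in 9 genes. Ndufv2 went from 0.30 to 0.013 without Chd8-/- replicate 1, Ndufs1 from 0.48 to 0.11 without Chd8-/- replicate 2 and Ndufs7 from 0.12 to 0.036 without WT replicate 2. With 1 library left out the log2 fold change ranged from −1.04 to 0.21 for Ndufa6, highest without Chd8-/- replicate 2. It ranged from −0.93 to 0.085 for Ndufc1 and from −0.031 to 1.41 for Ndufs6, with the reversed value without WT replicate 1. For the 3 reversed values, the library left out held the lowest or the highest level of that gene.

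The replicate numbers are names only. The correlation of the deviations of same-numbered libraries across genes was −0.012, from 2 pairs. With the replicate block the median of 0.21 and the counts of 11 above and 2 below are the same by construction. At an unadjusted p under 0.05, limma with this block listed 4 subunit genes, against 8.77% of all genes. The ATAC-seq and CHIP-seq alternatives were not run. With the depth unknown, counting error cannot be told apart from the spread between mice, and a TPM listed at 0 gives no limit.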
